A study of Nannochloropsis oceanica with 6 samples.

Results

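The mitochondrial genome of Nannochloropsis oceanica, a unicellular marine alga, was represented by 35 gene IDs with the prefix mt- among the 10493 IDs of the deposited count table. These 35 were chosen by that prefix alone, and all 35 symbols matched the mitochondrial entries of a reference gene table for strain IMET1. By symbol, 10 were nad genes, 4 were cob and cox genes, 4 were atp genes, 16 were rpl and rps genes, and 1 was tatC. Polyadenylated RNA was sequenced from 6 libraries of IMET1 cells kept for 5 days under continuous low light (50 µmol photons m-2 s-1). There were 2 libraries from NoPAC4 knockout line 1, 2 from NoPAC4 knockout line 2 and 2 from wild type (WT), and all cells had the same strain, light and medium. The labels give the temperature as 23 °C in the treatment field and 25 °C in the growth field, alike for all 6 libraries. They do not say how the knockout was made, whether a line was 1 clone, or whether replicates came from separate cultures. The p-values therefore reflect only how far these libraries lay apart.

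Mitochondria make ATP by passing electrons along the respiratory chain to oxygen, and the proton gradient so formed drives ATP synthase. Most mitochondrial proteins are encoded in the nucleus, and the organelle genome keeps genes for core subunits of complex I (nad), complex III (cob), complex IV (cox) and ATP synthase (atp), together with proteins of its own ribosome (rpl and rps). The nuclear IDs of the table carry no gene names, so nuclear-encoded subunits of the same complexes were not analysed here.

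Mitochondrial reads were few in every library. Line 1 held 179 and 221 mitochondrial reads, line 2 held 182 and 170, and WT held 227 and 184. Library totals lay between 13956854 and 16311239 reads. Mitochondrial genes took 0.00121% and 0.00147% in line 1 cells, 0.00130% and 0.00121% in line 2 cells, and 0.00139% and 0.00115% in WT cells, of all reads counted. The lowest and highest of these shares, 0.00115% in WT replicate 2 and 0.00147% in line 1 replicate 2, had Wilson 95% intervals of 0.000993 to 0.00132% and 0.00129 to 0.00168%, which overlap and cover counting error only. For every 100 plastid reads there were 13.0 and 9.09 mitochondrial reads in line 1 cells, 11.4 and 10.6 in line 2 cells, and 11.7 and 9.97 in WT cells. The groups therefore overlapped in total mitochondrial RNA by either measure. Because polyadenylated RNA was selected, these values describe only the mitochondrial RNA that entered such libraries.

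Reads were spread very unevenly over the 35 genes. Over all 6 libraries 1163 reads were mitochondrial, and cox1 alone held 275 of them, atp1 160 and nad7 95. In all, 13 genes had reads in every library, 33 had reads in at least 1 library, and rps14 and rps19, for proteins of the small ribosomal subunit, had 0 reads in all 6. A count of 0 over all 6 libraries together allows up to 3 reads, or 0.0333 per 1e+06 reads counted (CPM). Reads in all 6 libraries were found for 6 of 10 nad genes, 4 of 4 cob and cox genes, 2 of 4 atp genes and 1 of 16 ribosomal protein genes.

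**Figure D1:**
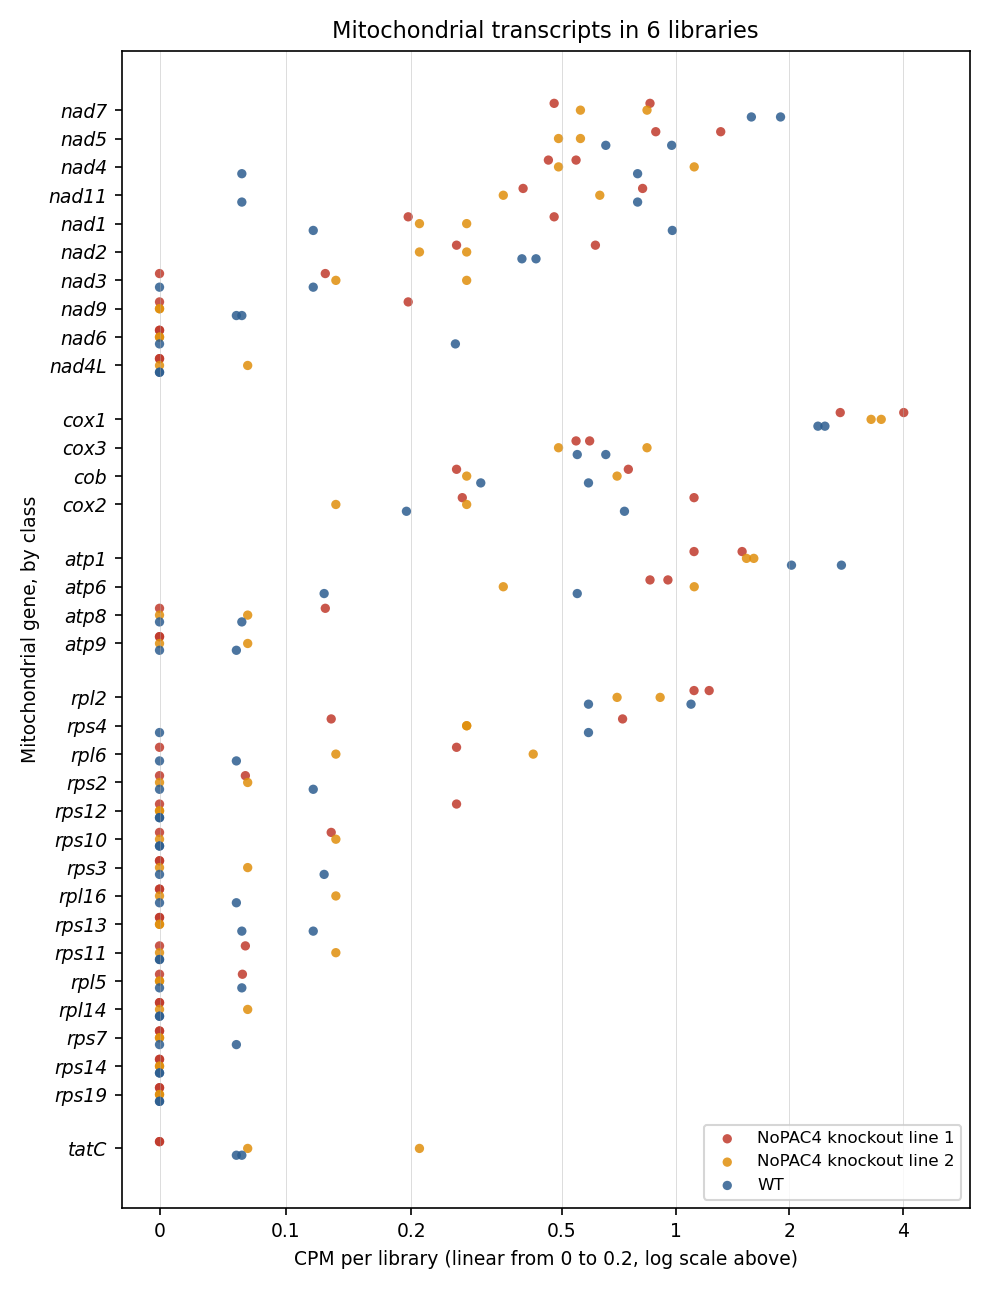
CPM (counts scaled to 1e+06 per library after TMM factors) of 34 of the 35 mitochondrial genes, one point per library, grouped by class and ordered by reads within a class. Only cox1, atp1, nad7, rpl2, nad5, atp6, nad4 and cox2 exceeded 1 CPM in any library, and most ribosomal protein genes lay at or near 0.

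Per transcript length, cox1 had the highest mean of the mitochondrial transcripts in each of the 3 groups, but not the highest value in every library. On the authors' deposited TPM scale, which divides by transcript length, cox1 averaged 4.54 ± 0.73 in knockout cells (SD, n = 4, pooling 2 libraries of each line) and 3.17 ± 0.06 in WT cells (SD, n = 2). It encodes the catalytic core subunit of cytochrome c oxidase. In WT the next places were taken by nad7 at 3.08 ± 0.25 TPM, atp1 at 3.03 ± 0.79 TPM and rpl2 at 2.55 ± 1.17 TPM (SD, n = 2 each), and these neighbours in the order did not differ beyond their spread. In the knockout libraries rpl2 came second at 3.08 ± 0.72 TPM, followed by atp6 at 2.74 ± 1.07 TPM and nad3 at 2.47 ± 2.17 TPM, while atp1 was sixth at 1.87 ± 0.28 TPM and nad7 was in place 11 at 1.25 ± 0.34 TPM (SD, n = 4 each). The place of nad3 rests on 0 to 4 reads per library, since 1 read of this short gene was worth 1.15 TPM against 0.0899 TPM for cox1. In WT replicate 1 atp1 (3.59 TPM) and rpl2 (3.38 TPM) lay above cox1 (3.21 TPM). In WT replicate 2 nad7 (3.26 TPM) lay above cox1 (3.13 TPM). Above cox1 also lay rpl2 in line 1 replicate 1 (3.86 against 3.66 TPM) and nad3 in line 2 replicate 1 (5.29 against 4.78 TPM). The median gene of the whole table had 44.6 TPM, and 0 of the 35 mitochondrial genes had a mean above it.

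Differences between the knockout lines and WT were tested gene by gene with edgeR's quasi-likelihood test on the whole table, with Benjamini-Hochberg adjustment over 9712 genes. Only 10 mitochondrial genes passed the filter on low counts (about 10 reads, or 0.67 CPM, in at least 2 libraries), and they held 80.1% of the mitochondrial reads. The filter did not follow total reads. For example, cox3 failed with 55 reads in all and 7 to 12 per library, and cox2 passed with 42 and 2 to 17. A gene could pass this filter through 1 group alone, so the 10 do not stand for all 35. For both lines together against WT, 0 of the 10 were called at an adjusted p below 0.05, where 0.165% of all tested genes were called. Without the filter 33 of the 35 could be tested and 0 were called (2.26% of all genes then tested). At an unadjusted p below 0.05 the filtered quasi-likelihood test gave 2 of the 10, against 14.4% of all tested genes. DESeq2 called 0 of the 10 (5.74% of all tested genes) and limma-voom 0 (0.185%), whereas the edgeR likelihood ratio test called 1, nad7 (6.94%). The median log2 change of the 10 was 0.18 and that of all tested genes 0.01. The CPM of the 4 knockout libraries lay wholly above or below both WT libraries for 3 of the 10, cox1, atp1 and nad7, against 23.4% of all tested genes. No such share of all genes was computed for 1 line against WT or between the lines. Orders of that kind given below rest on 2 libraries against 2 and only describe these libraries. In RNA from whole cultures, fewer cells with a transcript and less of it per cell cannot be told apart.

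Complex I, the NADH dehydrogenase at the entry of the respiratory chain, was represented by 10 nad genes. Reads of nad7, which encodes a subunit of the peripheral arm close to the site of quinone reduction, numbered 7 and 13 in line 1 cells, 8 and 12 in line 2 cells, and 26 and 29 in WT cells. All 4 knockout libraries lay below both WT libraries. The mean was 0.683 ± 0.193 CPM in knockout cells (SD, n = 4) and 1.74 ± 0.22 CPM in WT cells (SD, n = 2). This gave a log2 change of -1.34 ± 0.38 (SE, 95% interval -2.25 to -0.42), which did not pass over all genes (edgeR adjusted p = 0.158), while the likelihood ratio test gave an edgeR adjusted p of 0.00877. Each line alone had a similar value, with -1.37 ± 0.46 in line 1 and -1.30 ± 0.46 in line 2 (SE, edgeR adjusted p = 0.264 and 0.312). Both lines were set against the same WT libraries, so these 2 values are not independent.

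The other nad genes showed no such separation between all knockout libraries and WT. For nad5, a proton-pumping subunit of the membrane arm, there were 13 and 20 reads in line 1 cells, 7 and 8 in line 2 cells, and 16 and 10 in WT cells. Here line 1 lay above line 2 and overlapped WT, whereas line 2 lay below WT, each order resting on 2 libraries against 2. Another membrane arm subunit, nad4, had 8 and 7 reads in line 1 cells, 16 and 7 in line 2 cells, and 13 and 1 in WT cells. The peripheral arm gene nad11 had 12 and 6 reads in line 1 cells, 5 and 9 in line 2 cells, and 13 and 1 in WT cells. The log2 changes of nad5, nad4 and nad11 for both lines against WT were -0.10 ± 0.42, 0.53 ± 0.82 and 0.31 ± 0.84 (SE). Their intervals ran from -1.11 to 0.91 for nad5, from -1.44 to 2.50 for nad4 and from -1.71 to 2.33 for nad11, so changes of several fold in either direction lay inside the last pair.

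The 2 WT libraries lay further apart than the 2 libraries of either line. Over the 9712 tested genes, the log2 ratio between replicates had an SD of 0.509 in WT. It was 0.282 in line 1 and 0.310 in line 2, and the test used 1 residual spread for all 3 groups. Of the 35 mitochondrial genes, 4 had exact Poisson 95% intervals that did not overlap between replicates in WT, and 0 in either line. For nad4 and nad11 the WT counts of 13 and 1 had exact Poisson 95% intervals of 6.92 to 22.2 reads and 0.0253 to 5.57 reads, which cover counting error only, whereas separate libraries can vary by more. Others, named after their values were seen, were nad1, for a membrane arm subunit at the quinone site, with 2 and 15 reads in WT, and rps4, for a small ribosomal subunit protein, with 0 and 9. In line 1 nad1 had 7 and 3 reads and rps4 had 2 and 11, and in line 2 nad1 had 4 and 3 reads and rps4 had 4 and 4.

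As a class, the nad genes summed to 3.82 and 3.82 CPM in line 1 cells, 3.43 and 3.08 CPM in line 2 cells, and 4.88 and 4.38 CPM in WT cells. All 4 knockout libraries lay below WT, and line 2 also lay below line 1. The log2 ratio of the knockout mean to the WT mean was -0.39. That separation rested on nad7, since without it the sum was 2.85 ± 0.46 CPM in knockout cells (SD, n = 4) and 2.89 ± 0.57 CPM in WT cells (SD, n = 2), a log2 ratio of -0.02 with the groups overlapping. Split by position in the complex, the 3 peripheral arm genes nad7, nad9 and nad11 together had 19 and 22 reads in line 1 cells, 13 and 21 in line 2 cells, and 40 and 31 in WT cells. The 7 membrane arm genes had 37 and 36 reads in line 1 cells, 36 and 23 in line 2 cells, and 40 and 36 in WT cells. In CPM the peripheral arm sum was lower in all 4 knockout libraries (log2 ratio -0.80) and the membrane arm sum overlapped WT (log2 ratio -0.09). In WT nad7 alone held 26 of the 40 and 29 of the 31 peripheral arm reads. In CPM nad9 and nad11 each overlapped between knockout libraries and WT, so the arm difference is not separate from that of nad7. The split by arm was made after the values of nad7 were known, and no test was made of any sum over these genes.

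**Figure D2:**
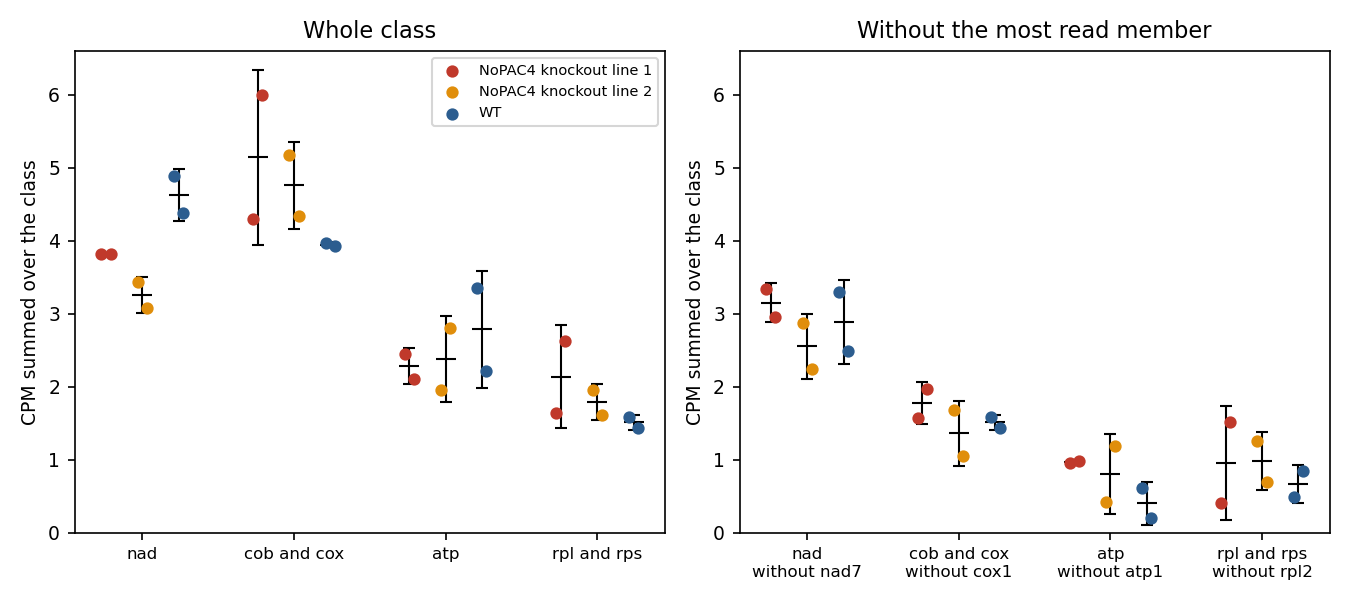
CPM summed over each class of mitochondrial genes in each library (points), with the mean and SD of the 2 libraries of each group (bars), for whole classes on the left and without the gene with most reads in the class on the right. The nad, cob and cox, and rpl and rps sums of the knockout libraries do not overlap WT on the left, and all 4 sums overlap WT on the right.

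Complexes III and IV, which pass electrons from quinol to cytochrome c and on to oxygen, were represented by cob, cox1, cox2 and cox3. Reads of cox1 numbered 40 and 61 in line 1 cells, 50 and 47 in line 2 cells, and 39 and 38 in WT cells. In CPM all 4 knockout libraries, at 2.73 and 4.01 in line 1 and 3.50 and 3.29 in line 2, lay above the WT values of 2.38 and 2.48. The log2 change was 0.48 ± 0.26 (SE, 95% interval -0.14 to 1.09) and did not pass (edgeR adjusted p = 0.481). It was 0.47 in line 1 and 0.48 in line 2. Without line 1 replicate 2, the library with most cox1 reads, it was 0.32 for both lines together and 0.16 for line 1, so the closeness of the line values rests on that library.

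The other genes of this class overlapped between knockout libraries and WT. The CuA-binding subunit gene cox2 had 4 and 17 reads in line 1 cells, 2 and 4 in line 2 cells, and 12 and 3 in WT cells, a log2 change of -0.28 ± 0.84 (SE). Cytochrome b, encoded by cob, had 11 and 4 reads in line 1 cells, 10 and 4 in line 2 cells, and 5 and 9 in WT cells, a log2 change of 0.16 ± 0.69 (SE). The gene for another core subunit of cytochrome oxidase, cox3, had 8 and 9 reads in line 1 cells, 12 and 7 in line 2 cells, and 9 and 10 in WT cells, and lay just below the filter, with cob just above it. Its mean was 0.617 ± 0.154 CPM in knockout cells (SD, n = 4) and 0.601 ± 0.074 CPM in WT cells (SD, n = 2).

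Summed, the 4 genes had 4.29 and 5.99 CPM in line 1 cells, 5.18 and 4.34 CPM in line 2 cells, and 3.97 and 3.92 CPM in WT cells. Every knockout library was above WT, with a log2 ratio of 0.33. That separation held only with cob included. Summed over cox1, cox2 and cox3 alone, the groups overlapped, with 3.54 CPM in line 1 replicate 1 and 3.66 CPM in WT replicate 1. Without cox1 the sums of the class were 1.57 ± 0.39 CPM in knockout cells (SD, n = 4) and 1.51 ± 0.11 CPM in WT cells (SD, n = 2), a log2 ratio of 0.05 with the groups overlapping. The direction of this class therefore followed cox1, as that of the nad class followed nad7.

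The tested ATP synthase genes atp1 and atp6 had log2 changes of opposite sign, neither of which passed. The alpha subunit of the catalytic F1 head is encoded by atp1, which had 22 and 17 reads in line 1 cells, 22 and 23 in line 2 cells, and 45 and 31 in WT cells. All 4 knockout libraries lay below WT, at 1.44 ± 0.22 CPM against 2.39 ± 0.51 CPM in WT (SD, n = 4 and 2), and line 1 also lay below line 2. The log2 change was -0.73 ± 0.29 (SE, 95% interval -1.44 to -0.03) and did not pass (edgeR adjusted p = 0.325). By line it was -0.87 ± 0.35 in line 1 and -0.60 ± 0.35 in line 2 (SE, edgeR adjusted p = 0.353 and 0.626). Without WT replicate 1, the library with most atp1 reads, the value for both lines was -0.50, that for line 1 -0.63 and that for line 2 -0.36.

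The membrane-embedded Fo part is encoded by atp6, atp8 and atp9. The proton channel subunit gene atp6 had 14 and 13 reads in line 1 cells, 5 and 16 in line 2 cells, and 9 and 2 in WT cells. Only line 1 lay wholly above WT. The log2 change for both lines was 1.22 ± 0.72 (SE, 95% interval -0.52 to 2.96, edgeR adjusted p = 0.530), with 0.55 without WT replicate 2 and 2.57 without WT replicate 1. At atp8 and atp9, for small Fo subunits, no library had more than 2 reads. The 4 atp genes summed to 2.33 ± 0.38 CPM in knockout cells (SD, n = 4) and 2.79 ± 0.80 CPM in WT cells (SD, n = 2), with the groups overlapping and a log2 ratio of -0.26 that was 0.10 on the TPM scale.

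**Figure D3:**
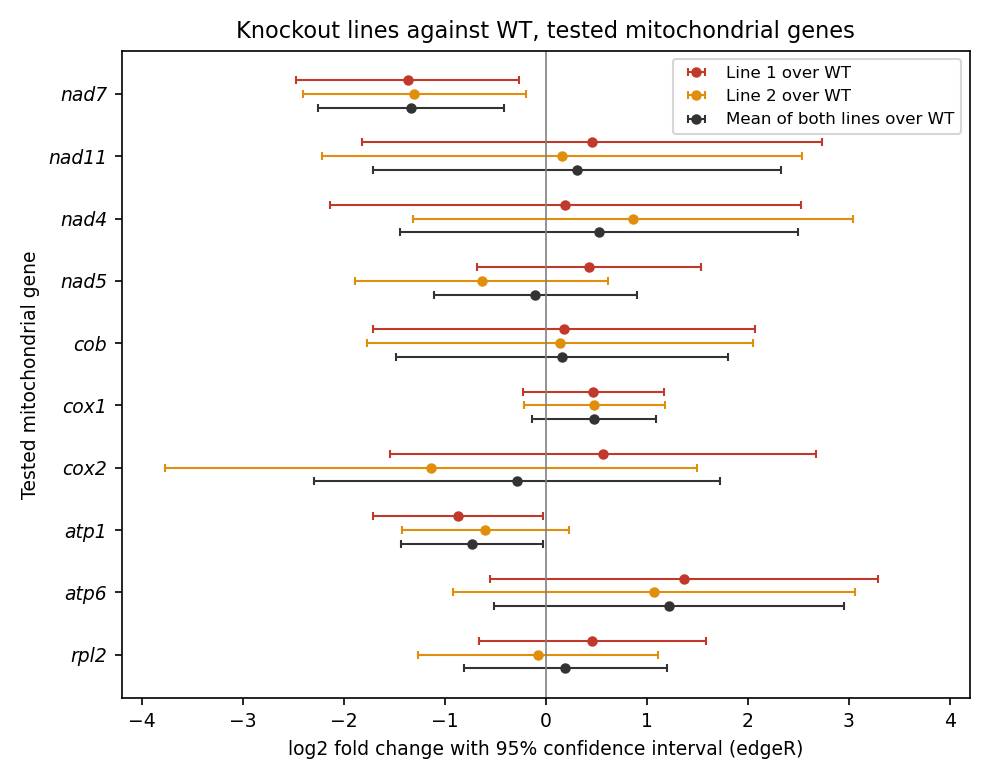
Log2 fold change (points) with its 95% confidence interval (bars) for the 10 tested mitochondrial genes, for line 1, line 2 and the mean of both lines, each over WT. The interval for both lines lies below 0 for nad7 and atp1 and includes 0 for the other 8 genes, and 0 of the 10 were called after adjustment over all genes.

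Ratios between mitochondrial genes within a library do not depend on the scaling between libraries. For every 100 cox1 reads there were 17.5 and 21.3 nad7 reads in line 1 cells, 16 and 25.5 in line 2 cells, and 66.7 and 76.3 in WT cells. The corresponding atp1 reads were 55.0 and 27.9 in line 1 cells, 44.0 and 48.9 in line 2 cells, and 115 and 81.6 in WT cells. Both ratios were lower in every knockout library than in either WT library. The nad7 reads per 100 atp1 reads were 31.8 and 76.5 in line 1 cells, 36.4 and 52.2 in line 2 cells, and 57.8 and 93.5 in WT cells, and these overlapped. The 3 ratios were chosen because their genes had already been seen to differ, so they describe these libraries and were not tested.

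Among the 16 ribosomal protein genes only rpl2 passed the filter. It encodes a protein of the large subunit near the peptidyl transferase centre, and had 18 and 17 reads in line 1 cells, 10 and 13 in line 2 cells, and 18 and 9 in WT cells. The log2 change was 0.19 ± 0.42 (SE, 95% interval -0.81 to 1.20). The WT libraries spanned the values of line 2, and line 1 lay just above both. The other 15 ribosomal genes together gave 0.970 ± 0.506 CPM in knockout cells (SD, n = 4) and 0.669 ± 0.255 CPM in WT cells (SD, n = 2), which overlapped. With rpl2 included, the ribosomal sum was 1.64 and 2.63 CPM in line 1 cells and 1.96 and 1.61 CPM in line 2 cells. It was 1.59 and 1.44 CPM in WT cells, a log2 ratio of 0.37 for both lines to WT. The knockout libraries thus lay above WT, the nearest by a margin smaller than the difference between the WT libraries. Summed by subunit, the large subunit genes and the small subunit genes each overlapped between knockout libraries and WT in CPM. Reads of the small subunit gene rps12 appeared in 1 library, with 4 in line 1 replicate 2, and those of rps13 in WT alone, with 2 and 1. These counts are close to the 3 reads that a count of 0 allows, so no fold is given. Without the filter the edgeR test had adjusted p = 0.567 for rps12 in line 1 against WT and adjusted p = 0.496 for rps13 in both lines against WT.

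Shares of the mitochondrial reads give the same comparison without scaling. The nad genes took 31.3% and 26.2% in line 1 cells, 26.9% and 25.9% in line 2 cells, and 35.2% and 36.4% in WT cells. The cob and cox genes took 35.2% and 41.2% in line 1 cells, 40.7% and 36.5% in line 2 cells, and 28.6% and 32.6% in WT cells. The nad share was lower and the cob and cox share higher in all 4 knockout libraries. The counting error of such shares was large: the Wilson 95% interval of the nad share was 24.9 to 38.4% in line 1 replicate 1 and 29.3 to 41.7% in WT replicate 1. On the authors' deposited TPM scale, where short genes with few reads weigh more, the sums of the nad, cob and cox, atp, and rpl and rps classes all overlapped between knockout libraries and WT.

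By line, the quasi-likelihood test called 0 of the 10 genes in line 1 against WT (0.134% of all tested genes) and 0 in line 2 against WT (0.0412%). An unadjusted p below 0.05 was reached by 2 genes in line 1 (13.6% of all tested genes) and by 1 in line 2 (11.8%). DESeq2 called 0 of the 10 in line 1 (4.15%) and 0 in line 2 (3.85%), and limma-voom also called 0 in line 1 (0.196%) and 0 in line 2 (0.0412%). The likelihood ratio test called 1 in line 1, nad7 (edgeR adjusted p = 0.0493, 5.02% of all tested genes), and 0 in line 2 (4.51%). Between line 1 and line 2, 0 of the 10 were called by quasi-likelihood (0%), DESeq2 (0.175%), limma-voom (0%) or the likelihood ratio test (0.237%). None of the 10 had an unadjusted quasi-likelihood p below 0.05 there, against 3.75% of all tested genes. With all 6 libraries, the genes with the largest differences between the lines were cox2, at 1.70 ± 1.04, and nad5, at 1.06 ± 0.51 (line 1 over line 2, log2, SE). Their intervals ran from -0.80 to 4.19 and from -0.15 to 2.27. For nad7 and cox1 the differences were -0.07 and -0.01, with intervals from -1.33 to 1.19 and from -0.69 to 0.67. Without line 1 replicate 2 the differences were 0.36 for cox2, 0.75 for nad5, -0.55 for nad7 and -0.32 for cox1. With all libraries the interval of the difference was narrower for cox1 than for any other tested mitochondrial gene.

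In the reference gene table (assembly ASM5162214v2) cox1 and atp1 are next to each other at the start of the mitochondrial sequence, followed by nad2, atp6 and nad1, while cox2 and nad7 are its last neighbours. The 5 genes from cox1 to nad1 together had 92 and 98 reads in line 1 cells, 85 and 92 in line 2 cells, and 102 and 92 in WT cells. This run held neighbouring genes on opposite sides of WT, with cox1 higher and atp1 lower in every knockout library.

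**Figure D4:**
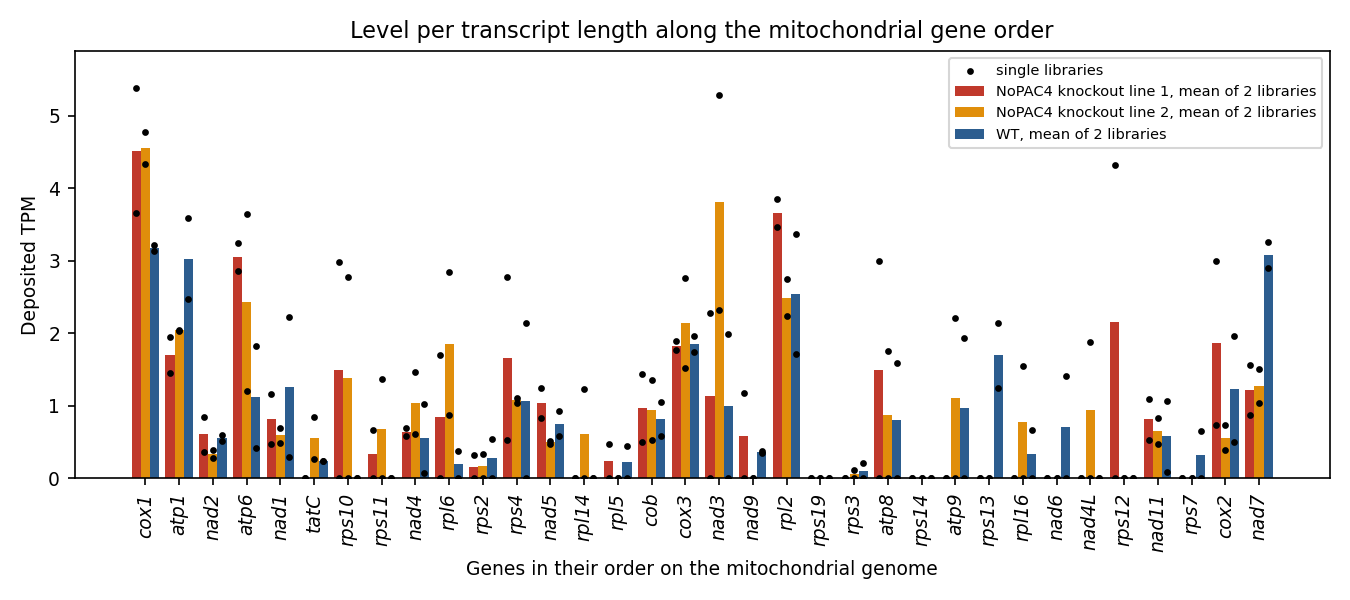
Deposited TPM of 34 of the 35 mitochondrial genes in their order on the mitochondrial genome, as the mean of 2 libraries for each knockout line and WT (bars) and as single libraries (black points). The highest bars are cox1, atp1, atp6, nad3, rpl2 and nad7, and many short ribosomal protein genes have a value in 1 library and 0 in the other of the same group.

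Plastid genes of like function were also lowly read in these libraries. The 7 plastid ATP synthase genes together had 37 and 38 reads in line 1 cells, 29 and 32 in line 2 cells, and 62 and 45 in WT cells, and the mitochondrial atp genes had 36 and 32, 28 and 40, and 55 and 34 in the same order. Of 2 plastid atp genes tested, 0 were called by the quasi-likelihood test and both had log2 changes below 0, with a median of -0.74. The 43 plastid ribosomal protein genes had 90 and 80 reads in line 1 cells, 66 and 94 in line 2 cells, and 157 and 102 in WT cells, with 0 of 3 tested genes called and a median of -0.20. DESeq2, limma-voom and the likelihood ratio test called 0 of these 5 genes, and 0 had an unadjusted quasi-likelihood p below 0.05. Whether the mitochondrial classes differ from these plastid classes was not tested.

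The remaining genes lay below the filter. Of the 25 such genes, cox3, nad1 and nad2 had reads in every library, rps4 and rpl6 had 30 and 13 reads in all, 18 had from 1 to 10 reads over all 6 libraries, and rps14 and rps19 had 0. The complex I gene nad2 had 9 and 4 reads in line 1 cells, 4 and 3 in line 2 cells, and 7 and 6 in WT cells. The small membrane arm genes nad3, nad6 and nad4L had 10, 4 and 1 reads in all, those of nad6 in WT replicate 2 alone, and the peripheral arm gene nad9 had 5. The gene tatC, for a subunit of the twin-arginine protein translocase, had 0 and 0 reads in line 1 cells, 3 and 1 in line 2 cells, and 1 and 1 in WT cells. Tested without the filter, cox3 had a log2 change of 0.03 ± 0.47 (SE, 95% interval -1.10 to 1.16) for both lines against WT.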

How the data were processed

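The authors deposited expected counts for 10493 gene IDs and TPM values (scaled by transcript length) of the same genes in 6 libraries. STAR and edgeR are named, without versions, per the submitters' processing notes. The genome build, annotation and counting program are not given in the sources used here. Of the deposited counts 20.1% were not whole (tolerance 1e-06), and 0 of those for mitochondrial genes. Counts were rounded and tested with edgeR 4.0.16 in R 4.3.3 (quasi-likelihood, robust, TMM factors, the default group filter on low counts, 3 groups in 1 model, 3 residual degrees of freedom, no replicate block). Of 10493 genes 9712 were tested. Standard errors and intervals were derived from the F statistic. CPM denotes counts per 1e+06 reads of TMM-adjusted library size. DESeq2 1.42.0, limma-voom (limma 3.58.1), other scalings, no filter, replicate blocks and leaving out each library were alternatives. Groups and replicate numbers came from sample titles. The members, classes and lists were chosen with earlier results of these data known. All 35 members are accounted for in the counts and sums, those that passed the filter are described singly, and 1 member below the filter is not reported by name here. The code was tested on simulated counts.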

Additional observations from a re-analysis of the deposited data

Results flagged for a closer look

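Among the 4 knockout libraries, 1 library stood far from the other three for cox2, where line 1 replicate 2 had 1.12 CPM and the others 0.140 to 0.280 CPM, and for nad4, where line 2 replicate 1 had 1.12 CPM and the others 0.461 to 0.545 CPM. Such a gap arises by chance in about 1 of 20 groups, and 16 sets of values were examined. The 2 lines lay on opposite sides of WT for tatC, with 0 and 0 CPM in line 1, 0.210 and 0.0700 CPM in line 2, and 0.0610 and 0.0653 CPM in WT. These are 0 to 3 reads per library, and the test without the filter on low counts did not pass for line 1 against line 2 (edgeR adjusted p = 0.915).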

How the results depend on the processing

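Depth limits these results, since 170 to 227 mitochondrial reads per library left 25 of 35 genes below the filter on low counts. Without the filter 33 were tested and 0 called. Over 14 alternatives, 0 genes were called for both lines against WT in 13, and 1 with the likelihood ratio test. The same test called 1 in line 1, and 0 were called in line 2 and between the lines under 15 alternatives each. No alternative turned the sign of nad7, atp1, cox1 or atp6 for both lines against WT, with nad7 between -1.58 and -1.03 (edgeR, DESeq2 or limma adjusted p from 0.00877 to 0.475). Leaving out each library in turn gave -0.30 to 0.67 for cob, -0.95 to 0.94 for cox2, -0.55 to 2.90 for nad11, -0.33 to 3.13 for nad4, -0.37 to 0.22 for nad5 and -0.19 to 0.72 for rpl2, and between the lines -0.55 to 0.29 for nad7, -0.32 to 0.24 for cox1, 0.36 to 2.37 for cox2 and 0.75 to 1.31 for nad5. Without any 1 library the log2 ratio of class sums ranged from -0.47 to -0.31 for nad, 0.22 to 0.39 for cob and cox, -0.53 to 0.07 for atp, 0.20 to 0.46 for rpl and rps and -0.11 to 0.10 for all 35 genes. With summed TPM it was -0.14 for nad, 0.30 for cob and cox, 0.10 for atp and 0.67 for rpl and rps. For all 35 genes it was 0.25 (-0.01 in CPM). Sums without the gene with most reads were chosen after seeing the data. Their log2 ratios were -0.018 for nad, 0.052 for cob and cox, 1.14 for atp and 0.54 for rpl and rps. The cause of these shifts beyond the genes and weights changed was not tested.

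By the replicate numbers in the titles, the differences of replicate 1 and replicate 2 correlated at 0.101 between line 1 and line 2. The correlation was 0.0350 between line 1 and WT and 0.326 between line 2 and WT. Whether libraries of the same number belong together was not tested further. The descriptions number line 2 and WT differently, and no such correlation was computed for their numbers. With either replicate block 0 mitochondrial genes were called in any comparison. Both blocks add terms, so their models had fewer residual degrees of freedom than the 3 of the main model, fewest with the descriptions. The block from the descriptions turned cob to -0.66, cox2 to 0.45, nad5 to 0.090 and nad7 between the lines to 0.014, and gave 0.54 for cox2 between the lines. Calls over all genes for both lines numbered 16 in the main analysis, and 337 and 317 with the blocks from titles and descriptions. They numbered 233 without the filter, 557 with DESeq2 and 674 with the likelihood ratio test. More genes were called when WT lost a library than when a knockout line did, and the group concerned then held 1 library alone.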
